A study of Mus musculus with 11 samples.

Results

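The interferon-inducible GTPases described here are 6 guanylate-binding proteins (GBP genes Gbp2, Gbp3, Gbp4, Gbp5, Gbp6 and Gbp7) and 4 immunity-related GTPases (IRG genes Irgm1, Irgm2, Igtp and Iigp1). They were taken by symbol from a table of 38406 genes, and all 10 symbols were found. The libraries were made from mRNA of back skin of female C57BL/6 mice aged 8 to 10 weeks. Of the 11 mice, 5 were wild type (WT, replicates 2 to 6) and 6 lacked the DNA exonuclease gene Trex2 (Trex2 KO, replicates 7 to 12). Every mouse, wild type or knockout, was shaved and received 125 mg of a 5% imiquimod cream (Aldara) on each of 4 days, and skin was taken 24 hours after the last application. Imiquimod is an agonist of the receptor TLR7 and its cream is used as a model of psoriasis. Untreated skin was not analysed here. Induction of these genes by imiquimod was therefore not measured, and each comparison is between genotypes within treated skin.

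GBP and IRG proteins are GTPases of cell-autonomous immunity. Interferons, above all interferon gamma, induce their genes through IRF1 and other factors in most cell types, keratinocytes, macrophages and endothelial cells included. The proteins gather on vacuoles that hold bacteria or parasites and help to break them open. GBP proteins also bring bacterial products to inflammatory caspases. Among mouse IRG proteins, Irgm1, Irgm2 and Igtp (also called Irgm3) are regulators that sit on the cell's own membranes, and Iigp1 (also called Irga6) is an effector that they hold in check. The regulators carry a methionine in the nucleotide-binding loop where the effectors carry a lysine.

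The genes lie in clusters of related copies. On GRCm38 (GENCODE M21), Gbp5 (ENSMUSG00000105504.4), Gbp7, Gbp3 and Gbp2 (ENSMUSG00000028270.12) lie in this order on the plus strand of chromosome 3. Gbp2b, which is not a member, lies between Gbp3 and Gbp2. Gbp5 starts at 142493978 and Gbp2 ends at 142638008. Gbp4 and Gbp6 lie on the minus strand of chromosome 5, from 105115767 to 105139586 and from 105270702 to 105293698. Irgm1 lies on the minus strand of chromosome 11 from 48861968 to 48871683. Igtp and Irgm2 overlap on the plus strand of chromosome 11, Igtp from 58199556 to 58207591 and Irgm2 from 58199618 to 58222782, and their annotated exons share 162 bases. The position of Iigp1 is given with its values. All 10 are annotated as protein-coding.

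The sequences below are shown because they are the part of the promoters that the members have in common. Of the 10 members, 7 matched an entry among the RefSeq promoter windows (GRCm38.p6, 250 bases before to 50 after an annotated start). Gbp4, Gbp6 and Iigp1 did not match. An interferon-stimulated response element (ISRE) core, searched on both strands as GAAA, 2 bases of any kind and GAAA again, was found in a window of all 7, though not in the second of 2 windows of Gbp3. Of all 32851 windows of that length, 3.44% hold it. Each line gives 30 bases on the strand of the gene, 5′ to 3′, with the core in capitals, and overlapping matches are joined.
Gbp2: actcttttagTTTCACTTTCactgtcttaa
Gbp3: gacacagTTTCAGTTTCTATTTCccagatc
Gbp5: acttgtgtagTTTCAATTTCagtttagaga
Gbp7: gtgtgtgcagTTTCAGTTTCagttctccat
Irgm1: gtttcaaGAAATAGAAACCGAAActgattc
Irgm2: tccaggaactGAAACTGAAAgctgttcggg
Igtp: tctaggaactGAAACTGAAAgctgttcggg
These stretches lie at chr3:142620594-142620623 (plus strand) for Gbp2, chr3:142559992-142560021 (plus) for Gbp3, chr3:142496759-142496788 (plus) for Gbp5, chr3:142530273-142530302 (plus) for Gbp7, chr11:48871428-48871457 (minus) for Irgm1, chr11:58214903-58214932 (plus) for Irgm2 and chr11:58199512-58199541 (plus) for Igtp.

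In the 4 GBP genes of chromosome 3 the core reads in the reverse orientation relative to the gene, and in the 3 IRG genes of chromosome 11 it reads in the forward one. Its first base lies 59 bases before the RefSeq start in Gbp2, 53 in Gbp7, 64 in Irgm2 and 34 in Igtp. In Gbp5 it lies farther out, at 165 bases. Gbp3 and Irgm1 hold 2 overlapping matches, at 45 and 39 bases in Gbp3 and at 30 and 24 bases in Irgm1. A gamma-activated site (GAS) core, searched as TTCNNNGAA, which is its own reverse complement, was found in the windows of 4 members (Gbp5, Gbp7, Irgm2 and Igtp) and in 8.30% of all windows. In Irgm2 the GAS core starts 75 bases before the start, and in Igtp 45 bases before it, on the far side of the ISRE core in both. With a shift of 30 bases the windows of Igtp and Irgm2 had the same base at 184 of 270 positions (68.1%). RefSeq starts are not always the GENCODE M21 starts. The printed stretches of Gbp5, Irgm1 and Irgm2 lie inside the GENCODE span of their gene, and that of Gbp2 lies partly inside it. A match is a run of letters and does not show binding.

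Trex2 itself had 1125 to 2196 normalized counts in the 5 wild-type libraries and 0.794 to 3.47 in the 6 knockout libraries, so every library carried the level of its label. A normalized count is a read count divided by 1 size factor per library. The wild-type libraries held 1208896 to 5853454 counted reads and the knockout libraries 3125366 to 15557862, so depth and genotype are partly confounded. The 10 members had 6 to 518 reads each in a library. Every member was detected in every library, and all 10 passed the minimum for testing, a mean of 10 normalized counts over all libraries. Over all genes, 13215 were tested.

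Per length of annotated exons, Gbp2 was the most abundant member in treated skin. Its level was 123 ± 39.1 normalized counts per kilobase in the wild-type libraries (SD, n = 5) and 78.8 ± 18.9 in the knockout ones (SD, n = 6), and it stood above the next gene in all 11 libraries. Igtp (39.3 ± 13.5 per kilobase in wild type), Irgm2 (37.9 ± 12.4) and Iigp1 (34.9 ± 17.8) followed. These 3 IRG genes did not separate beyond their spread, since Igtp was above Irgm2 in 6 of 11 libraries and Irgm2 above Iigp1 in 7. Iigp1 was above Gbp3 in 9 of 11. Gbp3 (25.5 ± 4.13 per kilobase), Gbp7 (24.8 ± 7.08) and the regulator Irgm1 (21.3 ± 6.9) were likewise close together. Irgm1 stood above Gbp5 in all 11 libraries. Gbp5 (9.46 ± 2.62 per kilobase), Gbp4 (6.02 ± 2.37) and Gbp6 (5.78 ± 3.68) were lowest. Gbp4 and Gbp6 did not separate, with Gbp4 higher in 5 of 11 libraries. The length joins all annotated exons of a gene, 7494 bases for Gbp4 and 2022 for Igtp, whether or not skin uses them. This order therefore depends on the annotation, and the level of Gbp6 is uncertain for a reason given with its values.

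The design asks whether loss of Trex2 alters these genes in imiquimod-treated skin. All 10 members had a lower mean in knockout, from 64.1% of the wild-type mean for Gbp2 to 91.4% for Irgm1. None passed an adjusted p of 0.05 in limma, on log2(normalized count + 1) with Benjamini-Hochberg adjustment over all 13215 genes. That threshold was passed by 0.0151% of all genes tested. At an unadjusted p under 0.05 in limma, 3 of the 10 were lower, Gbp2, Gbp3 and Gbp5, and 0 were higher. Over all genes 11.5% were lower at that p and 12.9% were higher. DESeq2 on recovered reads called 0 of 10 at an adjusted p of 0.05, where it called 2.15% of all genes lower, and edgeR also called 0 of 10. At an unadjusted p under 0.05, edgeR and DESeq2 each had 3 of 10 members lower, beside 10.9% of all genes lower in edgeR and 11.6% in DESeq2.

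The median log2 fold change of the members was −0.32, beside 0.01 over all genes tested, of which 49.0% were negative. Negative values mean lower in knockout. Fold changes are from limma on log2(normalized count + 1) unless another method or other processing is named. Without wild-type replicate 5 that median was −0.16 with 8 of 10 members negative. Without knockout replicate 9 it was −0.18 with 9 of 10 negative, and without knockout replicates 9 and 12 together it was −0.13 with 9 of 10 negative and 1 at an unadjusted p under 0.05. In the other direction it was −0.54 with log10 depth as a covariate, where the lowest member adjusted p in limma was 0.892. It was −0.52 in libraries of 3000000 to 8000000 reads (4 wild type and 3 knockout, replicate 9 among them), where that p was 0.566. With the depth covariate Gbp2 (−0.59), Igtp (−0.28) and Irgm1 (−0.07) had smaller differences than in the main fit, and the other members larger ones. In bulk skin, fewer cells that express these genes and less RNA per cell cannot be told apart.

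**Figure D1:**
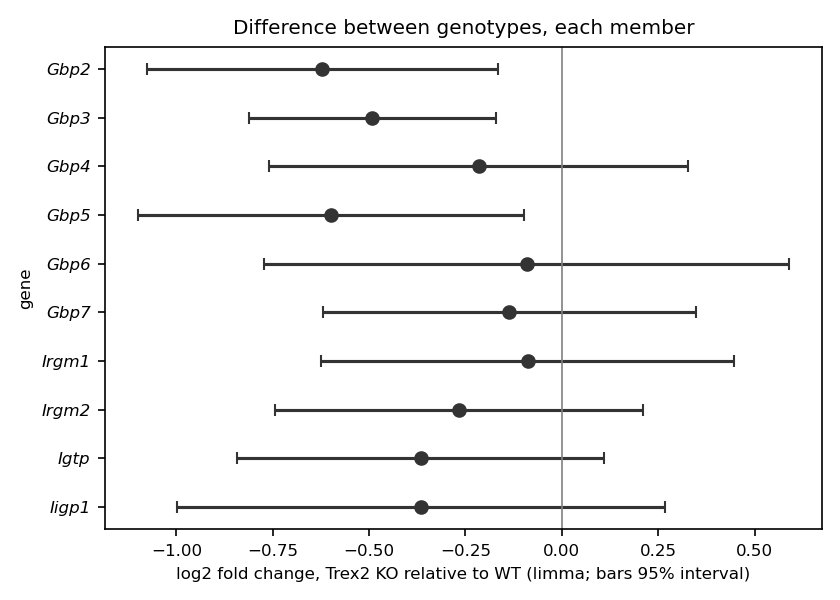
Log2 fold change of each member, knockout relative to wild type, as a point with its 95% interval from limma (5 wild-type and 6 knockout libraries); the vertical line marks no difference. All 10 points lie below 0, from −0.62 for Gbp2 to −0.09 for Irgm1 and Gbp6, and the intervals of Gbp2, Gbp3 and Gbp5 exclude 0 before adjustment for multiple tests.

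Among the GBP genes, the 3 with the largest differences all belong to the chromosome 3 cluster. Gbp2 encodes a GTPase that is anchored to membranes by a lipid tail and coats pathogen vacuoles. It had 230, 311, 228, 470 and 304 normalized counts in wild-type replicates 2, 3, 4, 5 and 6. In knockout it ranged from 139 to 262 with a median of 207. Wild-type replicate 5 stood well above the rest, and 5 of the 6 knockout values were under the lowest wild-type value. The means were 309 ± 98.4 and 198 ± 47.4 (SD, n = 5 and 6). The log2 fold change was −0.62 (95% interval −1.08 to −0.17, limma adjusted p = 0.124), and a two-sided exact permutation test over samples gave p = 0.0238. That test was run once for each of the 10 members, and its p-values are not adjusted. Without knockout replicates 9 and 12 together the log2 fold change of Gbp2 was −0.41.

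Gbp3 was the only member whose groups did not overlap, a pattern that 1.29% of all genes tested had in that direction. It had 67.1, 85.7, 91.2, 99.8 and 72.2 normalized counts in wild-type replicates 2 to 6. The knockout libraries lay between 52.4 and 65.4, with a median of 58.6, so the highest knockout library was just under the lowest wild-type one. The knockout values were also tight, with an SD of 5.18 around a mean of 58.5 (n = 6), against 13.5 around 83.2 in wild type (n = 5). The log2 fold change was −0.49 (95% interval −0.81 to −0.17, limma adjusted p = 0.109). The exact permutation p of 0.00216, two-sided and without adjustment, is the smallest that 5 against 6 libraries allow. DESeq2 gave an adjusted p of 0.0507. Wild-type replicate 3 gave 19 reads for Gbp3, the fewest of any library.

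Gbp5, which promotes assembly of the NLRP3 inflammasome, had 45.4, 67.7, 74.5, 82.6 and 43.9 normalized counts in wild-type replicates 2 to 6. It ranged from 29.4 to 53.6 in knockout with a median of 40.4. The groups overlapped, since wild-type replicates 2 and 6 lay within the knockout range. The means were 62.8 ± 17.4 and 41 ± 10.7 (SD, n = 5 and 6), and the log2 fold change was −0.60 (95% interval −1.10 to −0.10, limma adjusted p = 0.151).

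Gbp7, the remaining member of the chromosome 3 cluster, differed little. Wild-type replicates 2 to 6 had 145, 104, 196, 153 and 98.9 normalized counts of Gbp7, and knockout libraries 78.6 to 165 with a median of 129. The knockout values covered nearly the whole range of the wild-type ones apart from replicate 4. Its log2 fold change was −0.14 (95% interval −0.62 to 0.35, limma adjusted p = 0.725). It was −0.0030 without wild-type replicate 4, −0.25 without wild-type replicate 6 and −0.55 with log10 depth as a covariate. Whether the 4 genes of the cluster differ from one another in their response to genotype was not tested.

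The 2 members on chromosome 5 had the lowest levels per kilobase. Gbp4 had 39.9, 27.1, 32.2, 69.9 and 56.5 normalized counts in wild-type replicates 2 to 6, and 27.8 to 53.1 in knockout with a median of 35.4. The value in wild-type replicate 3 rests on 6 reads. The log2 fold change of Gbp4 was −0.22 (95% interval −0.76 to 0.33, limma adjusted p = 0.612). It was −0.040 without wild-type replicate 5, −0.37 without wild-type replicate 3 and −0.53 with log10 depth as a covariate. Gbp6 had 73.5 normalized counts in wild-type replicate 5, and the 4 other wild-type libraries lay between 23.5 and 27.1. Knockout libraries had 17.7 to 43.9 with a median of 28.8, which is above the wild-type median of 24.5. Its log2 fold change of −0.09 (95% interval −0.77 to 0.59, limma adjusted p = 0.878) became 0.22 without wild-type replicate 5 and −0.21 without knockout replicate 11, and edgeR gave −0.29. Gbp6 also shares 70.7% of the 50-base stretches of its annotated transcripts with transcripts of other genes, 65.0% with Gm43302, which overlaps it. Reads of Gbp6 may therefore have been split or dropped in counting, and its level is uncertain. The share was 12.7% for Gbp7, 11.8% for Igtp, 7.83% for Irgm2, 7.78% for Gbp4 and at most 3.75% for the other members.

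**Figure D2:**
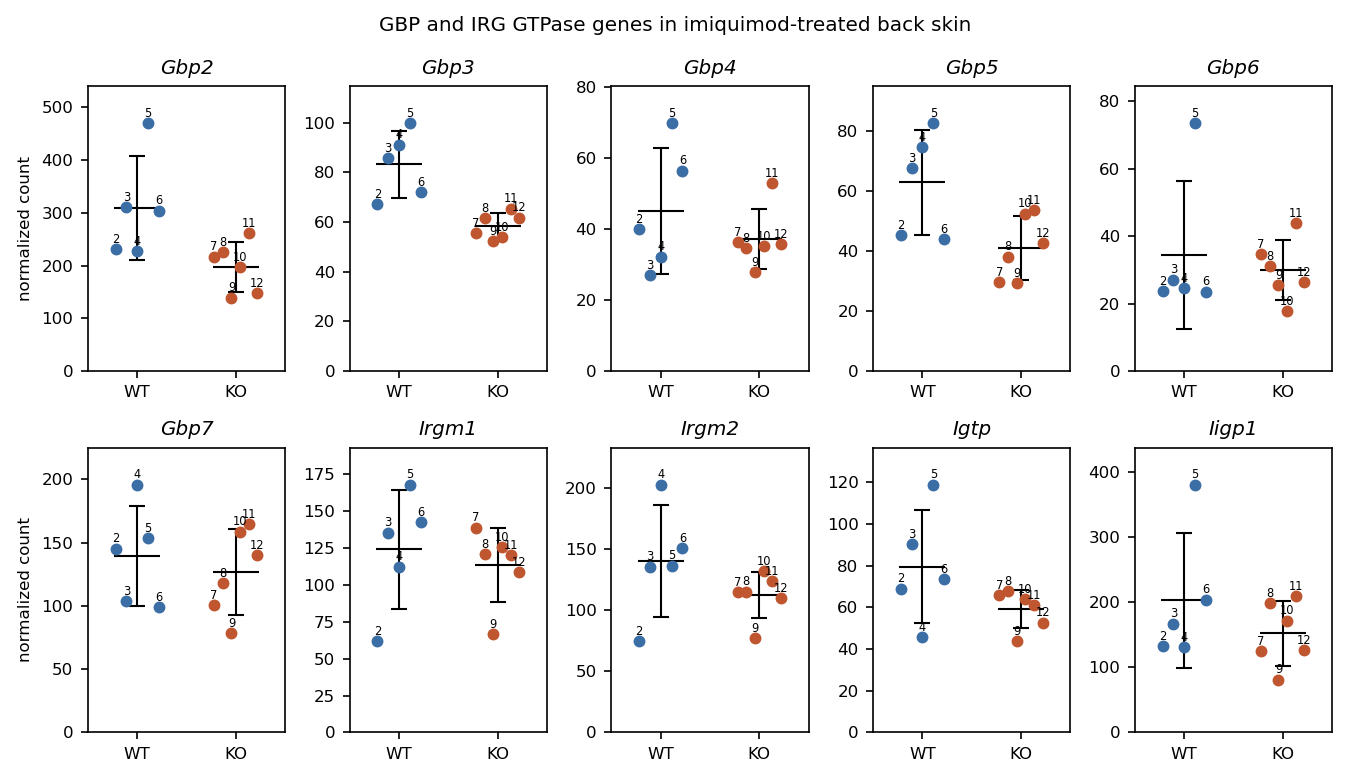
Normalized count (vertical axes, from 0, each gene on its own scale) of the 10 members in each library, with the replicate number beside each point; blue points are 5 wild-type and orange points 6 knockout libraries, and bars are mean ± SD. Gbp3 is the gene without overlap between the groups, and wild-type replicate 5 is the highest point for 8 of the 10 genes.

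Among the IRG genes the effector Iigp1 varied most. It lies on the plus strand of chromosome 18 from 60376027 to 60392634. It had 132, 167, 131, 380 and 204 normalized counts in wild-type replicates 2 to 6. Knockout libraries ranged from 81 to 210 with a median of 149. Wild-type replicate 5 stood 2.4 times above the mean of the other wild-type libraries, and the remaining 4 overlapped with the knockout values. The means were 203 ± 104 and 152 ± 49.5 (SD, n = 5 and 6), with a log2 fold change of −0.36 (95% interval −1.0 to 0.27, limma adjusted p = 0.454). Without wild-type replicate 5 the log2 fold change was −0.11, and with log10 depth as a covariate it was −0.65.

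The regulator Igtp had 69, 90.3, 45.6, 119 and 73.7 normalized counts in wild-type replicates 2 to 6 and 43.7 to 67.9 in knockout, with a median of 62.5. All 6 knockout libraries were below the wild-type mean, but wild-type replicate 4 was nearly as low as the lowest of them. Its log2 fold change was −0.37 (95% interval −0.84 to 0.11, limma adjusted p = 0.315). Without wild-type replicate 5 it was −0.21, and without wild-type replicate 4 it was −0.55. Irgm2 had 74.4, 135, 202, 136 and 151 normalized counts in the same wild-type replicates and 77 to 132 in knockout with a median of 115. The highest and the lowest Irgm2 values were both in wild type, in replicates 4 and 2, and the log2 fold change was −0.27 (95% interval −0.74 to 0.21, limma adjusted p = 0.466). That value was −0.12 without wild-type replicate 4 and −0.48 without wild-type replicate 2. Reads from the exon bases that Igtp and Irgm2 share cannot be told apart.

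Irgm1, a regulator needed for defence against mycobacteria, had 61.7, 135, 112, 168 and 143 normalized counts in wild-type replicates 2 to 6. It had 66.7 to 139 in knockout with a median of 120. Replicate 2 was the low library in wild type and replicate 9 in knockout. Wild-type replicates 5 and 6 lay above every knockout library, and wild-type replicates 3 and 4 lay within the knockout range. The log2 fold change was −0.09 (95% interval −0.62 to 0.45, limma adjusted p = 0.844), and it was 0.055 without knockout replicate 9 and 0.039 without wild-type replicate 5. Without wild-type replicate 2 it was −0.32.

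Each member's log2 values were centred on that gene's own mean and then averaged over the 10 genes. This average was 0.18 ± 0.35 in the wild-type libraries and −0.15 ± 0.27 in the knockout libraries (SD, n = 5 and 6). It ranged from −0.20 to 0.75 in wild type and from −0.62 to 0.20 in knockout, so the ranges overlapped, with 1 of 6 knockout libraries under all of the wild-type ones. Wild-type replicate 5 was the highest of the 11 libraries for 8 of the 10 members. Knockout replicate 9 was the lowest for 6 and among the lowest 3 for 9 of them. Knockout replicate 11 was among the highest 3 for 4 members and among the lowest 3 for none.

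The members did not all keep the same order of libraries. In wild-type replicate 4, Gbp7 and Irgm2 had their highest wild-type values, and Gbp2, Igtp and Iigp1 their lowest. In wild-type replicate 2 the 4 IRG genes stood at −0.45 on this scale and the 6 GBP genes at −0.04. The GBP mean was below that of every wild-type library in 5 of 6 knockout libraries and the IRG mean in 1 of 6. The difference between genotypes was −0.36 for GBP genes (0.20 in wild type and −0.16 in knockout) and −0.27 for IRG genes (0.15 and −0.12). Whether those differences themselves differ was not tested. Gbp3 and Gbp2 stayed closest to the mean profile of the other members, with root mean square differences of 0.22 and 0.24 on the log2 scale over 11 libraries. Gbp6 and Gbp7 were farthest, at 0.42 and 0.40, near the median of 0.46 that all other tested genes had from the mean profile of the 10 members.

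**Figure D3:**
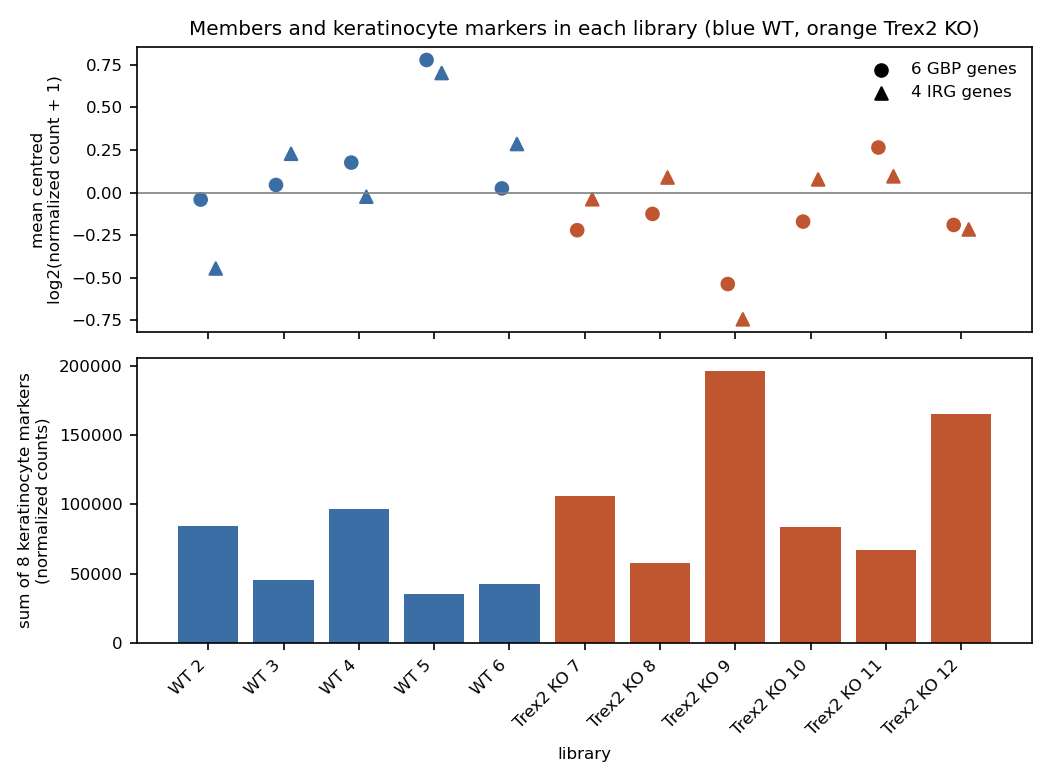
Upper panel: mean centred log2(normalized count + 1) of the 6 GBP genes (circles) and the 4 IRG genes (triangles) in each library. Lower panel: summed normalized counts of 8 keratinocyte markers in the same libraries, wild type in blue and knockout in orange; wild-type replicate 5 has the highest member values and the lowest keratinocyte sum (35442), and knockout replicate 9 the lowest member values and the highest sum (196074).

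Marker sums of the cell types in skin also differed between libraries. The 8 keratinocyte markers summed to 35442 to 96624 normalized counts across wild-type libraries and 57598 to 196074 across knockout libraries, and 6 of 8 were higher in knockout at an unadjusted limma p under 0.05. Of all genes tested, 12.9% were higher and 11.5% lower at that p. Krt14 and Krt5 made up most of the keratinocyte sum, with means of 41338 and 16364 in wild type and 75480 and 28685 in knockout. The 11 markers of natural killer and cytotoxic T cells, cells that make interferon gamma, summed to 217 to 437 in the wild-type and 81.9 to 205 in the knockout libraries, without overlap. The highest sum was in wild-type replicate 5, where the centred mean of the members was 0.75. Wild-type replicates 3 and 6 had sums of 433 and 411, with centred means of the members of 0.12 and 0.13. All 5 tested natural killer and cytotoxic T cell markers were lower at an unadjusted p under 0.05. Cd8a and Ifng of that list were at 0 in some libraries, and 6 of the 11 were below the minimum for testing. Gzma was the largest part of this sum, with means of 168 in wild type and 46.4 in knockout. Neutrophil markers (8 of 8 lower at that p) summed to 46344 to 110607 and 16318 to 81838, and monocyte and macrophage markers (3 of 8 lower, 1 higher) to 9086 to 12690 and 4926 to 12355. S100a8 and S100a9 averaged 31143.5 and 35346 in wild type and made up most of the neutrophil sum there. Wild-type replicate 5 was 5th from the highest of the 11 libraries in the neutrophil sum and 6th in the monocyte and macrophage sum. It was 2nd in the plasmacytoid dendritic cell and endothelial sums and 3rd in the fibroblast sum. Plasmacytoid dendritic cell markers, 2 of which also respond to interferon (Bst2 and Irf8), summed to 991 to 1684 and 599 to 912 (2 of 3 tested lower). Tcf4 was the largest part of this sum, with means of 784 in wild type and 511 in knockout. Ccr9, a defining marker of those cells, was at 0 in some libraries. It averaged 3.37 in wild type and 7.36 in knockout, and Siglech 9.62 and 4.70, both below the minimum for testing.

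The 6 endothelial markers summed to 1907 to 3150 in the wild-type and 1151 to 2851 in the knockout libraries (1 of 6 lower at that p), and the 6 fibroblast markers to 48532 to 68903 and 43814 to 67839 (0 of 6). Knockout replicate 9 had the lowest sum of the 11 libraries in the endothelial, fibroblast, and monocyte and macrophage lists, and the 3rd lowest in the neutrophil and natural killer lists. The 8 hair follicle markers summed to 86.3 to 269 and 161 to 403 (2 of 4 tested higher), with Krt71, Krt25, Krt27 and Msx2 at 0 in some libraries. None of these markers passed an adjusted p of 0.05 in limma. Over all 13215 genes tested, DESeq2 called 284 lower and 292 higher. Among these markers it called 3 natural killer and cytotoxic T cell, 3 neutrophil, 2 monocyte and macrophage and 2 plasmacytoid markers lower, and 2 keratinocyte markers higher. Their part in the values of the GTPase genes was not tested.

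Other genes of the GBP and IRG families were mostly too low to test. Of 19 in the table, 7 reached the minimum, with 3 negative and 4 positive log2 fold changes (median 0.01). None passed an adjusted p of 0.05 in limma or DESeq2, and at an unadjusted p under 0.05 in limma 2 were lower and 1 higher. Over all genes tested 11.5% were lower and 12.9% higher at that p. Ifi47, an IRG effector (also called Irgd), averaged 105 ± 35.9 normalized counts in the wild-type libraries and 70.8 ± 11.9 in the knockout ones (log2 fold change −0.49, SE 0.23, limma adjusted p = 0.202). Gm4951, which lies near Iigp1, stood at −0.59 (SE 0.26, adjusted p = 0.185). Irgq, a family member that is not known for induction by interferon, stood at 0.62 (SE 0.22, adjusted p = 0.137) with 145 ± 48.3 and 217 ± 54.5 normalized counts. The other positive genes were Gbp9, on chromosome 5 like Gbp4, at 0.15 (SE 0.31), Gm12250 at 0.24 (SE 0.32) and Gm5431 at 0.01 (SE 0.26). 9930111J21Rik2 stood at −0.29 (SE 0.25). Gbp2b, the neighbour of Gbp2 on chromosome 3, had 2 reads in all wild-type and 3 in all knockout libraries, although its RefSeq window also holds an ISRE core, 137 bases before the start.

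The interferons that induce these genes were near the limit of detection. None of 8 ligand genes reached the minimum. Ifng had 7 reads in wild type and 3 in knockout and was at 0 in 6 of 11 libraries. Ifnb1, Ifna2, Ifna4, Ifnl2 and Ifnl3 had no read in any library, which at 3 reads allows up to 1.04 to 13.5 normalized counts depending on the library. Ifnk had 4 reads, all in knockout, and Ifne 1 read in each genotype. At this depth the 5 genes without reads were not detectable, and the other 3 had too few reads to compare.

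All 6 interferon receptor genes were negative, with a median log2 fold change of −0.34, and 3 of 6 were lower at an unadjusted p under 0.05 in limma. For this list and those below, 11.5% of all genes tested were lower and 12.9% higher at that p. DESeq2 called 2.15% of all genes lower, and 1.29% had every knockout library below every wild-type one. Ifnar2, a chain of the type I interferon receptor, averaged 643 ± 81.5 normalized counts in the wild-type libraries and 408 ± 110 in the knockout ones, without overlap (log2 fold change −0.69, SE 0.18, limma adjusted p = 0.108, DESeq2 adjusted p = 0.0361). Ifngr1, the ligand-binding chain of the interferon gamma receptor, stood at −0.34 (SE 0.13) and its partner Ifngr2 at −0.22 (SE 0.13). Il10rb, a chain shared by the type III interferon receptor, stood at −0.33 (SE 0.15).

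Of 15 kinases, transcription factors and inhibitors of interferon signalling, 12 were negative (median −0.18), 5 of 15 were lower at that p and DESeq2 called 1 lower. Irf1, the factor that binds ISRE cores downstream of interferon gamma, averaged 173 ± 18.2 normalized counts in the wild-type libraries and 120 ± 17.1 in the knockout ones (SD, n = 5 and 6). The groups did not overlap, with Irf1 at −0.54 on the log2 scale (SE 0.14, limma adjusted p = 0.108, DESeq2 adjusted p = 0.0231). Irf7, a factor of type I interferon induction, stood at −0.44 (SE 0.14), the inhibitor Usp18 at −0.54 (SE 0.20) and Batf2 at −0.75 (SE 0.30).

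Other targets of interferon gamma were negative in 10 of 12 tested genes, with a median log2 fold change of −0.67, and 7 were lower and 1 higher at an unadjusted p under 0.05 in limma. The 1 higher was Nlrc5, at 0.38 (SE 0.17), and Cd74 was also positive, at 0.05 (SE 0.37). DESeq2 called 3 lower, B2m, Psmb8 and Psmb9, and limma called none. The immunoproteasome subunit gene Psmb8 averaged 440 ± 73.8 normalized counts in the wild-type libraries and 271 ± 60.1 in the knockout ones (log2 fold change −0.72, SE 0.18, limma adjusted p = 0.108). Psmb9, another such subunit, stood at −0.68 (SE 0.17) and B2m, which encodes the invariant MHC class I subunit, at −0.65 (SE 0.16). The knockout values of these 3 genes did not overlap with the wild-type ones. Cxcl10, a chemokine for T cells, stood at −0.98 (SE 0.37). Ciita, Ido1 and Cxcl11 of this list were below the minimum.

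Of 15 autophagy factors, ubiquitin factors and galectins linked to the targeting of GBP and IRG proteins to vacuoles, 13 were negative (median −0.22). At an unadjusted p under 0.05 in limma 2 were lower and 1 higher. Gabarap, an ATG8 protein, had 3918 ± 904 and 2550 ± 585 normalized counts (log2 fold change −0.62, SE 0.19, limma adjusted p = 0.108, DESeq2 adjusted p = 0.0417). Atg12 stood at −0.30 (SE 0.13) and Sqstm1 at −0.41 (SE 0.20), and the ubiquitin ligase Traf6 at 0.75 (SE 0.28).

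Inflammasome genes reached through GBP proteins were negative in 7 of 9 tested (median −0.27), and 2 were lower at an unadjusted p under 0.05. Casp4, the mouse caspase-11 gene, averaged 295 ± 65.8 normalized counts in the wild-type libraries and 182 ± 81.1 in the knockout ones (log2 fold change −0.77, SE 0.27, limma adjusted p = 0.126). Gsdmd, the pore-forming substrate of that caspase, stood at −0.59 (SE 0.22). Casp1 stood at −0.27 (SE 0.16) and Il1b at −0.47 (SE 0.33). None of the 9 passed in limma or DESeq2.

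**Figure D4:**
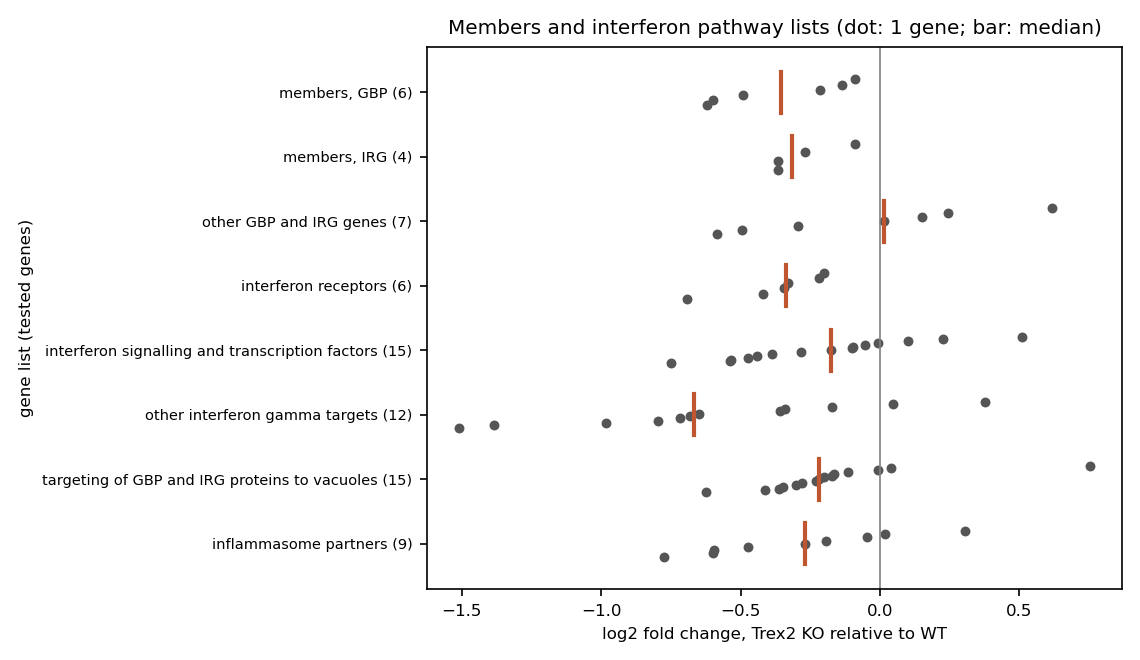
Log2 fold change, knockout relative to wild type, of every tested gene (dots) in the members' lists and in the lists of interferon pathway and partner genes, with the median of each list as an orange bar and the number of tested genes in brackets. All 10 members and all 6 interferon receptors lie below 0, the other interferon gamma targets have the lowest median (−0.67), and the list of other family genes has a median of 0.01.

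The genes whose library profile was most like the mean profile of the members were Sh3bp5, Mroh1, Nampt, Pam and Cav1. Likeness was the root mean square difference of centred log2 values over 11 libraries, among 13205 other tested genes. It was 0.13 for Sh3bp5, 0.15 for Mroh1 and Nampt and 0.16 for Pam and Cav1, where the median of all genes was 0.46. All 5 profiles share the libraries, their depth and their scaling with the members. None of the 5 passed in limma, with log2 fold changes from −0.26 to −0.13.

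**Figure D5:**
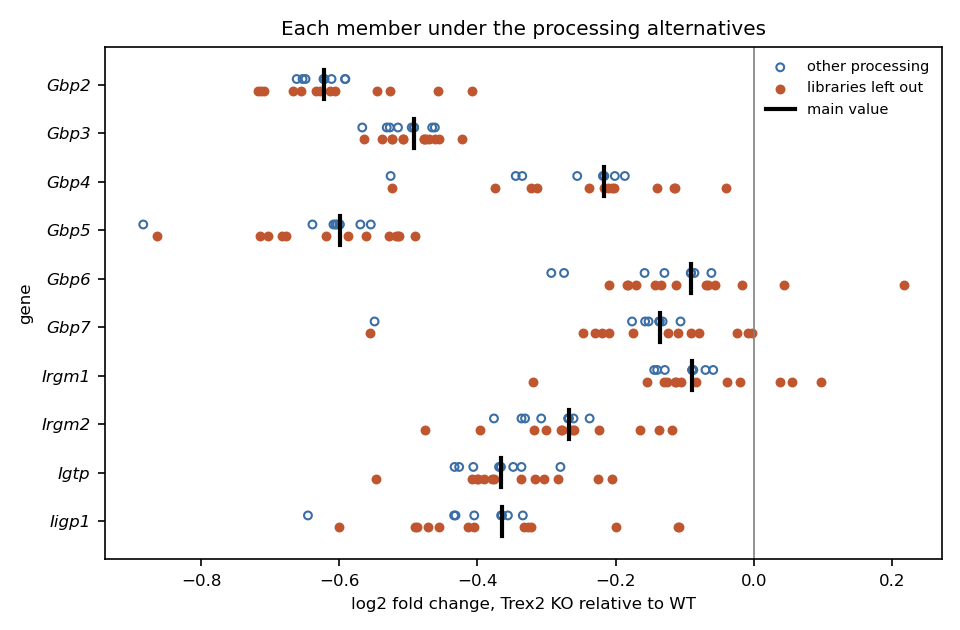
Log2 fold change of each member (black bar) with its value under other processing (open blue circles) and with libraries left out or restricted by depth (filled orange circles). Gbp2, Gbp3 and Gbp5 stay below 0 throughout, and Gbp6 and Irgm1 are the genes with values above 0, up to 0.22 for Gbp6 and 0.10 for Irgm1.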

How the data were processed

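The members and the gene lists were chosen with earlier results of these data known. The authors deposited 1 table of a normalized signal, gene counts divided by 1 size factor per library. TopHat2 2.0.8, featureCounts 1.4.6, DESeq2 1.8.1 and GRCm38 are named in the submitters' processing notes. The sources used here do not give their order, nor the annotation and strandedness used in counting. Columns were matched to samples by the replicate number in the titles. Divided by what 1 read is worth in its library, every value (100%) came within 0.01 of a whole number, and these reads were recovered. All pairs of libraries differed by more than sampling noise (chi-square over its degrees of freedom at least 4.74). The submitters call the samples biological replicates and name no batch.

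limma 3.58.1 (R 4.3.3, trended variances) was fitted to log2(normalized count + 1), keeping genes whose mean was 10 or more. edgeR 4.0.16 and DESeq2 1.42.0 were alternatives on recovered reads. Single members were also compared by exact permutation. The scripts were tested on simulated data. All members were named, with up to 4 genes of smallest p per list and the 5 genes of most similar profile. Ifng and the other ligands, Gbp2b, Gbp9, Gm12250, Gm5431, Ciita, Ido1, Cxcl11, Nlrc5 and Cd74 were added after their values were seen. So were the markers Ccr9, Siglech, Krt5 and Krt14. One of the gene lists, whose genes were mixed in direction, and a further gene are not reported here. Adgre1 was found under its older name Emr1. Exon lengths and positions are from GENCODE M21 and promoters from RefSeq (GRCm38.p6). Alternatives were pseudocounts of 0.5 and 5, no minimum or one of 50, TMM and upper quartile scaling, a depth covariate and left-out libraries.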

Additional observations from a re-analysis of the deposited data

Results flagged for a closer look

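A check for single libraries far from their group was run on each member in each group, 20 groups in all, and chance gives about 1 such library in 20 groups. It marked 2. Gbp6 had 73.5 normalized counts in wild-type replicate 5, and the other 4 wild-type libraries had 23.5 to 27.1. Gbp4 had 53.1 normalized counts in knockout replicate 11, and the other 5 knockout libraries had 27.8 to 36.4. Both genes belong to the chromosome 5 cluster, and both libraries were the highest of their group in the mean of all members.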

How the results depend on the processing

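No member was called by limma, edgeR or DESeq2 under any of the 22 alternatives run. The number of genes called over the whole table was 2 in limma, 4 in edgeR and 576 in DESeq2. It ranged from 2 to 740 when each library was left out, with 740 without wild-type replicate 4, where no member was called either (lowest member adjusted p = 0.0649 for Gbp2). The median log2 fold change of the members ranged from −0.44 (without wild-type replicate 2) to −0.16 (without wild-type replicate 5) when 1 library was left out. Of 218 member values under alternatives, 5 changed sign, all in Gbp6 and Irgm1. Gbp6 ranged from −0.21 to 0.22 and Irgm1 from −0.32 to 0.055 when 1 library was left out, and Irgm1 was 0.10 without knockout replicates 9 and 12 together. The cause was not tested. TMM and upper quartile scaling moved the median of all genes to 0.04 and −0.03. No paired analysis was possible because the groups share no replicate number. With a minimum of 50, Gbp4 and Gbp6 were not tested. Depth limits Gbp4 and Gbp6 most, at 6 reads in wild-type replicate 3.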
